A study of Mus musculus with 4 samples.

Results

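To describe lungs that lack p16 in room air (RA), 3 lungs of p16-/- mice (p16-/- RA) were set against 4 lungs of p16+/+ mice (p16+/+ RA), out of 15 lungs in the series. These 7 were all lungs labelled as kept in room air with a column of their own, and all 84 target genes of an insulin signaling PCR array were read in them, by function. p16-/- RA mice were of the p16Luc line from the NCI repository (strain name ending in /Nci), B6.Cg mice that carry the Cdkn2a tm3.1Nesh allele and the albino allele Tyr c-2J. In this line firefly luciferase sits behind the p16 promoter and takes the place of p16 in every cell. p16+/+ RA mice were wild type B6(Cg)-Tyrc-2J/J, also albino, and mice of both groups were 24 weeks old at collection and, per the methods, female. The methods name a different supplier for each line, so genotype and colony cannot be told apart. The other 8 lungs, 4 p16-/- and 4 p16+/+, came from mice exposed to cigarette smoke (CS) for 16 weeks starting at 8 weeks of age. Nothing in the labels states that each lung column is a separate animal, and if it is not, the p-values measure only the spread between these samples.

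p16, encoded by Cdkn2a, binds the cyclin-dependent kinases Cdk4 and Cdk6 and holds cells in a durable growth arrest that is a hallmark of senescence. Insulin and insulin-like growth factors act through receptor tyrosine kinases, whose substrates recruit phosphoinositide 3-kinase (PI3K) and, through adaptors, Ras. PI3K activates the kinase Akt by way of Pdpk1, and Akt in turn acts on mTOR, on glycogen synthesis and on FOXO transcription factors, while Ras acts through the Raf, MEK and ERK kinases. p16 itself is not a target of the array, so the genotype was not checked by it. Whole lobes were used, so fewer cells of a type and less RNA per cell cannot be told apart.

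The array reports a threshold cycle (CT) for each gene, and 1 cycle stands for a doubling of template. Values below are -ΔCT, the mean CT of 5 reference genes (Gapdh, Actb, B2m, Hsp90ab1 and Gusb) minus the CT of the gene, so that a higher value is more RNA and a difference of 1 is a 2-fold difference. Changes are given as log2 differences, p16-/- RA minus p16+/+ RA. The Gusb and Hsp90ab1 rows stood 1 place out of line with the others as deposited. After they were moved by 1 place, all 4 deposited group mean columns equalled the mean of their lungs in all 89 genes, against 87 of 89 genes in p16-/- RA and p16+/+ RA before the move. Both genes have no value for p16+/+ RA lung 1, whose reference mean was estimated at 25.2 cycles from its Actb, B2m and Gapdh.

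The reference genes set the scale of every other value, and among them Gapdh, the glycolytic enzyme glyceraldehyde phosphate dehydrogenase, stood furthest apart. Gapdh came up at 21.3, 20.5 and 21.4 cycles in the p16-/- RA lungs, compared with 26.2, 26.1, 24.7 and 25.2 cycles in the p16+/+ RA lungs. The groups did not overlap, with means of 21.1 ± 0.48 cycles (SD, n = 3) in p16-/- RA and 25.6 ± 0.71 cycles (SD, n = 4) in p16+/+ RA, a difference of -4.46 cycles or 22.1-fold more template in p16-/- RA. Its two-sided exact permutation p was 0.0286, the smallest value possible with 3 against 4 lungs, and adjusted p = 0.095 over the 10 tests of reference genes.
Actb, cytoplasmic actin, came up at 25.2, 25.2 and 25.5 cycles in p16-/- RA lungs and at 26.0, 27.8, 26.9 and 27.7 cycles in p16+/+ RA lungs, also earlier in every p16-/- RA lung (exact p = 0.0571, adjusted p = 0.11). B2m, the light chain of MHC class I, averaged 24.3 ± 0.42 cycles in p16-/- RA (SD, n = 3) and 23.6 ± 0.80 cycles in p16+/+ RA (SD, n = 4), and its lungs overlapped. Set against the mean of the 5 genes, however, B2m was 1.68 cycles later in p16-/- RA than in p16+/+ RA with no overlap (exact p = 0.0286, adjusted p = 0.095), the opposite direction to Gapdh, which was earlier with a difference of -3.53 cycles. Gusb, a lysosomal glucuronidase, averaged 28.0 ± 0.87 cycles in p16-/- RA and 28.3 ± 0.016 cycles in p16+/+ RA, and the chaperone Hsp90ab1 averaged 25.1 ± 0.41 cycles in p16-/- RA and 24.4 ± 0.43 cycles in p16+/+ RA (SD, n = 3 each). Set against the mean of the 5 genes, both were later in p16-/- RA, as B2m was. Hsp90ab1 was later by 1.81 cycles (exact p = 0.1) and Gusb by 0.90 cycles (exact p = 0.2). With 3 lungs in each group, the two-sided exact test of these genes cannot go below 0.1. The mean of the 5 genes includes Gapdh, so its early CT in p16-/- RA makes the other genes later on this scale by construction. On the CT itself the difference was 0.74 cycles for B2m, 0.70 for Hsp90ab1 and -0.22 for Gusb. The later values of these genes against that mean are therefore no finding separate from Gapdh. None of the 10 tests, on the CT or on the CT less the mean of the 5 genes, passed an adjusted p of 0.05.

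**Figure D1:**
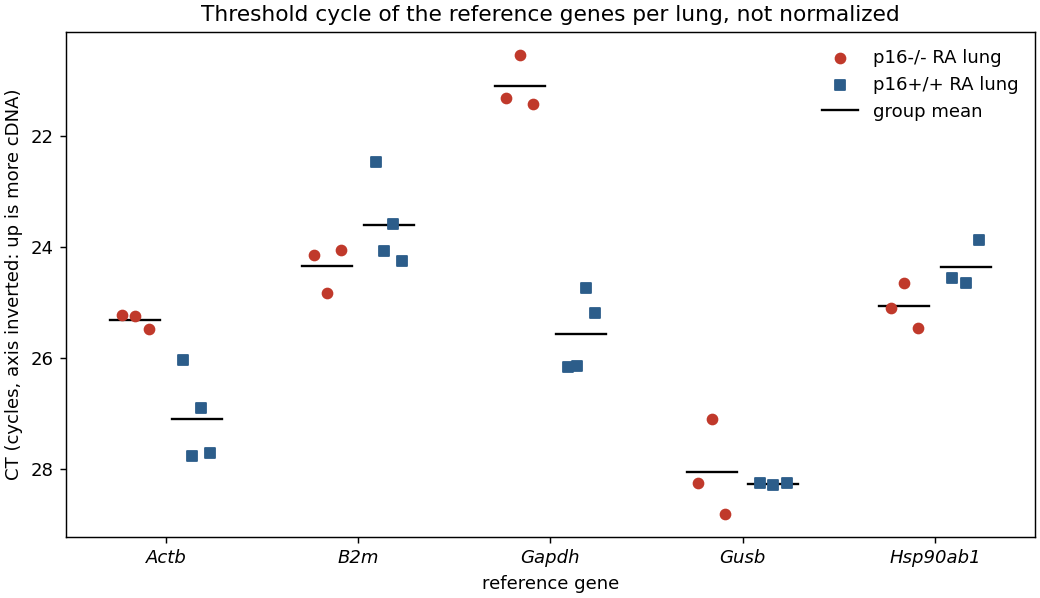
CT of each reference gene (vertical axis, in cycles, inverted so that up is more template) in each p16-/- RA and p16+/+ RA lung, with points for lungs and bars for group means. Gapdh came up at 20.5 to 21.4 cycles in p16-/- RA and at 24.7 to 26.2 cycles in p16+/+ RA.

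The lungs also differed in how late their genes came up. Averaged over the reference genes, CTs ran from 24.5 to 25.0 cycles across the p16-/- RA lungs and from 25.2 to 26.2 cycles across the p16+/+ RA lungs. Gapdh, with a difference of -4.46 cycles, carries most of that gap. The differences of the other reference genes went both ways, with -1.79 for Actb, -0.22 for Gusb, 0.70 for Hsp90ab1 and 0.74 for B2m. A p16-/- RA lung had 9 to 18 of its 84 targets blank or later than 30 cycles. A p16+/+ RA lung had 34 to 52, so many p16+/+ RA values rest on late CTs. A CT over 35 or a blank was set to 35, which concerned 5 values in p16-/- RA lungs and 3 in p16+/+ RA lungs. A CT limit of 30 was tried and is given below, and the part of these late CTs in the changes was not tested otherwise.

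Relative to the 5 reference genes, 24 of the 84 targets (28.6%) were higher in p16-/- RA lungs and 5 (5.95%) were lower. A total of 55 did not pass limma's test at an adjusted p of 0.05. Over all targets the median change was 0.90, against a typical standard error of 0.88 (their median), and 57 targets had a positive change and 27 a negative one. Groups stood apart without overlap in 31 targets higher in p16-/- RA (36.9%) and in 6 lower ones (7.14%). With Gapdh alone as the reference 0 targets were higher and 44 lower, with a median of -2.63 and a negative change in 80 targets, and with the median of the targets as the reference 12 were higher and 17 lower. Leaving Gapdh out of the reference gave 33 higher and 0 lower, with a median of 1.87, whereas 9 were higher without B2m and 10 without Hsp90ab1. The directions below are therefore relative to that 5-gene mean, and only differences between targets within a lung are free of that choice, though not of plate position. Leaving out 1 lung at a time moved the counts most without p16+/+ RA lung 2 (8 higher, 1 lower), p16-/- RA lung 2 (9 higher, 3 lower) and p16-/- RA lung 3 (13 higher, 1 lower), and 2 genes were lower without p16+/+ RA lung 3. Acaca, Frs2, Npy, Pklr, Prkci and Prkcz passed with any 1 of the 7 lungs left out, and each other gene named below as passing lost its call without at least 1 lung. With CTs limited to 30, 0 targets were higher and 0 lower, and the exact permutation test, adjusted, also called 0 and 0. With plate column effects removed, as described below, 5 were higher and 1 lower. The plot of the called genes by lung shows 22 of the 29 that passed.

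**Figure D2:**
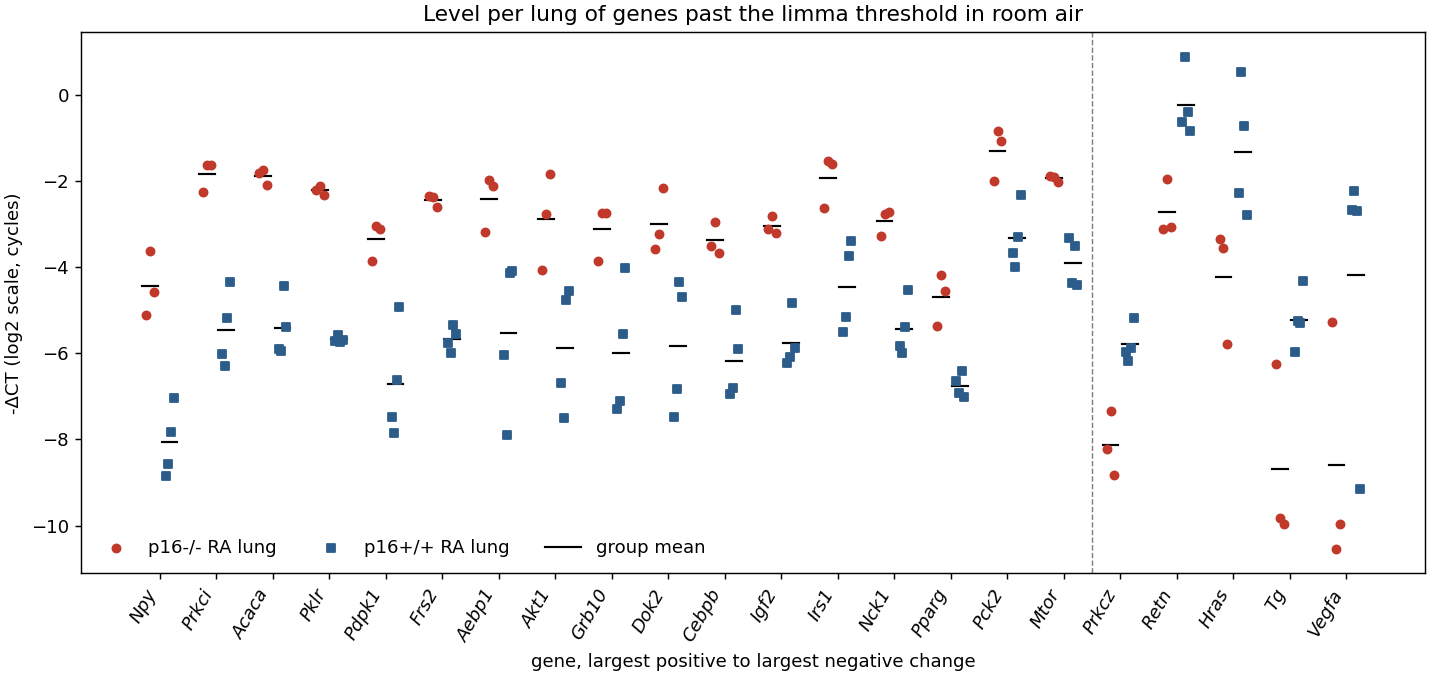
-ΔCT (vertical axis, log2 scale, against the 5-gene reference mean) of 22 genes that passed the test, 17 higher and 5 lower, in each p16-/- RA and p16+/+ RA lung. Lungs of the 2 genotypes stand apart in each gene except Vegfa, and with Gapdh alone as the reference the sign turned in 14 of the 17 higher genes, the exceptions being Acaca, Npy and Prkci.

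The counts of the functional lists stand beside shares over all targets of 28.6% higher and 5.95% lower, with a median change of 0.90. No list was tested against these shares. Among ligands, receptors and receptor substrates, 2 of 7 genes were higher and 0 lower, with a median change of 1.80. Both turned to a negative change with Gapdh alone as the reference. Igf2, the fetal growth factor, was higher by 2.72 (adjusted p = 0.018) and Irs1, a docking protein that couples the insulin and IGF receptors to PI3K, by 2.53 (adjusted p = 0.023). Igf2 stood between -3.21 and -2.80 in p16-/- RA lungs and between -6.22 and -4.83 in p16+/+ RA lungs. Igfbp1, a secreted carrier of IGFs, had a change of 1.92 (adjusted p = 0.062) and the insulin gene Ins1 one of 1.80 (adjusted p = 0.069), and in both the groups did not overlap. Igf1r, the IGF receptor, had a change of 0.45, with a 95% confidence interval of -1.30 to 2.20. Irs2, the second major substrate, had a change of -0.02 (95% confidence interval -1.77 to 1.72).

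Of the Dok and Frs docking proteins, which bind activated receptor tyrosine kinases, 2 of 5 were higher and 0 lower, with a median of 1.55. Frs2, which links FGF receptors to Grb2, stood at -2.35, -2.36 and -2.59 in the p16-/- RA lungs, compared with -5.75, -5.99, -5.35 and -5.56 in the p16+/+ RA lungs. Each group spanned under 1 cycle, and the change of 3.23 ± 0.84 (SE, adjusted p = 0.013) became -0.30 with Gapdh alone as the reference. Dok2, which damps Ras signaling in blood cells, was higher by 2.85 (adjusted p = 0.02), or -0.68 with Gapdh alone. Dok3 had a change of 0.34 and Frs3 one of -0.09, and the groups overlapped in both.

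Of the SH2 and SH3 adaptors and Sos1, 2 of 6 were higher and 0 lower, with a median of 0.84, and both had a negative change with Gapdh alone as the reference. Grb10, an adaptor that binds the insulin and IGF receptors and inhibits them, stood at -3.86, -2.74 and -2.74 in the p16-/- RA lungs, compared with -7.30, -7.12, -5.55 and -4.02 in the p16+/+ RA lungs. The lowest p16-/- RA lung was above the highest p16+/+ RA lung by a small margin, and the change was 2.88 ± 0.94 (SE, adjusted p = 0.026). Nck1, an adaptor to the actin cytoskeleton, was higher by 2.52 (adjusted p = 0.017). Gab1, Grb2, Sos1 and Shc1, which carry receptor signals toward PI3K and Ras, had changes between 0.06 and 0.96.

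None of the 6 genes of the phosphatases and the Cbl complex passed the test, with a median of -0.34. Cbl, a ubiquitin ligase of receptor tyrosine kinases, had the largest change of them at -1.84 and a wide spread, with -0.79, -6.44 and -9.11 in the p16-/- RA lungs, compared with -4.12 to -3.17 in the p16+/+ RA lungs. Cbl lay in plate column 12, whose targets had a median change of -1.84. Ptpn1, the phosphatase that dephosphorylates the insulin receptor, had a change of 0.48 (95% confidence interval -1.19 to 2.15). Dusp14, which acts on MAP kinases, had one of -0.55 and Cap1, an adenylyl cyclase associated protein that regulates actin, one of 0.92.

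**Figure D3:**
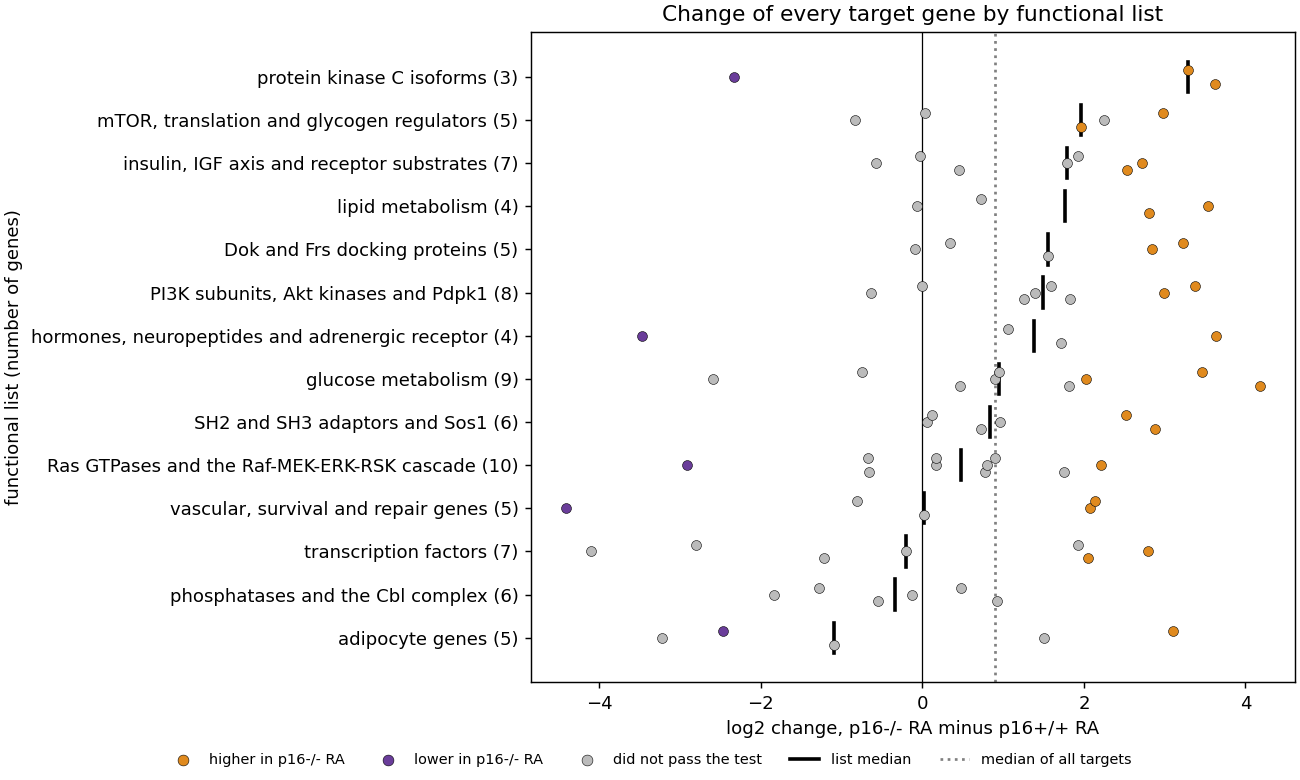
Change of each of the 84 targets (horizontal axis, log2, p16-/- RA minus p16+/+ RA, relative to the 5 reference genes) by functional list, with a bar at each list's median and a dotted line at the median of all targets, 0.90. With Gapdh alone as the reference the median of all targets lies at -2.63, so positions are relative to the choice of reference.

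Of the 8 PI3K subunits, Akt kinases and Pdpk1, 2 were higher and 0 lower, with a median of 1.49. Both had a negative change with Gapdh alone as the reference. Pdpk1, the kinase that phosphorylates Akt at its activation loop, stood at -3.86, -3.05 and -3.12 in the p16-/- RA lungs, compared with -7.47, -7.86, -6.61 and -4.93 in the p16+/+ RA lungs. Akt1, the widely expressed Akt, stood at -4.06, -2.76 and -1.84 in the p16-/- RA lungs, compared with -6.68, -7.51, -4.77 and -4.56 in the p16+/+ RA lungs. Neither gene overlapped between the groups, although p16+/+ RA lungs 3 and 4 lay closer to the p16-/- RA lungs than lungs 1 and 2 did. The change was 3.38 ± 0.88 for Pdpk1 (SE, adjusted p = 0.013) and 2.99 ± 0.90 for Akt1 (SE, adjusted p = 0.02), a 7.96-fold difference. Akt2, the isoform of insulin responsive tissues, had a change of 1.83 that did not pass (adjusted p = 0.23). The catalytic subunits Pik3ca and Pik3cb had changes of 1.25 and 1.60, and the regulatory subunits Pik3r1 and Pik3r2 changes of 1.39 and -0.64.

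The promoter of Akt1 is shown because it was the single called gene whose window held the FOXO letters, FOXO factors being targets of Akt. It is RefSeq sequence of build GRCm38.p6, chr12:112674885-112675134 on the minus strand, the 250 bases before 1 of the gene's 2 annotated starts, with the letters TGTTTAC in capitals.
Akt1 promoter: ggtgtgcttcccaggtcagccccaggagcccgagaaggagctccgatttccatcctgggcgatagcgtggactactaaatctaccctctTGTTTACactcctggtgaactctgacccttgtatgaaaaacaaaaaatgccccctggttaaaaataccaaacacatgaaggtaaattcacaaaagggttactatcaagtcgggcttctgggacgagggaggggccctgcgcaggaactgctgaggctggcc
A promoter window, 250 bases before to 50 after a start, was found for 65 of the targets. TGTTTAC, read on both strands, was in 1 of 16 higher genes, 0 of 4 lower genes and 0 of 45 genes that did not pass, against 4.05% of all genes of the table. The E2F letters TTTCCCGC, TTTCGCGC, TTTGCCGC and TTTGGCGC, named for the factors released when Rb is phosphorylated by Cdk4 and Cdk6, were in 0 of 16 higher genes, 0 of 4 lower genes and 3 of 45 others (Bcl2l1, Irs2 and Shc1), against 2.6% of all genes. A match describes the letters in a window and is no binding site.

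Of the 5 mTOR, translation and glycogen regulators, 2 were higher and 0 lower, with a median of 1.97. Mtor, the kinase of the 2 mTOR complexes, was higher by 1.97 (adjusted p = 0.022), a change that became -1.56 with Gapdh alone as the reference. It stood between -2.02 and -1.89 in p16-/- RA lungs and between -4.42 and -3.31 in p16+/+ RA lungs. Eif4ebp1, the translation repressor that mTOR phosphorylates, had a change of 2.25 that did not pass (adjusted p = 0.22), though its groups did not overlap. Gsk3b, the kinase that holds glycogen synthase inactive, had a change of -0.83, and Eif2b1, a subunit of an initiation factor, one of 0.03.

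Of the 10 genes of the Ras GTPases and the Raf, MEK, ERK and RSK cascade, 1 was higher and 1 lower, with a median of 0.48. Hras, one of the classical Ras GTPases, was lower, with -3.34, -3.56 and -5.79 in the p16-/- RA lungs, compared with -2.29, 0.54, -0.72 and -2.79 in the p16+/+ RA lungs. The groups stood apart by under 1 cycle at their nearest lungs, and the change was -2.92 ± 1.03 (SE, adjusted p = 0.037). It became -1.94 without Gapdh in the reference (adjusted p = 0.16) and -0.03 once plate column effects were removed (adjusted p = 0.99), Hras lying in plate column 12. Map2k1, the MEK1 kinase, had a change of 1.75 with no overlap (adjusted p = 0.086), and Rras2, a Ras relative, one of 0.90. Rps6ka1, an RSK kinase downstream of ERK, had a change of -0.68, and Rras one of -0.66.

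All 3 protein kinase C isoforms passed, 2 higher and 1 lower, with a median of 3.29. The atypical isoforms iota and zeta, which share partners in cell polarity complexes, went opposite ways. Prkci, iota, stood at -2.26, -1.62 and -1.62 in the p16-/- RA lungs, compared with -6.02, -6.29, -5.18 and -4.34 in the p16+/+ RA lungs. Prkcz, zeta, stood at -8.22, -7.33 and -8.83 in the p16-/- RA lungs, compared with -5.96, -6.17, -5.87 and -5.18 in the p16+/+ RA lungs. Each gene left a gap of over 1 cycle between the groups. The change was 3.62 ± 0.68 for Prkci (SE, adjusted p = 0.0038), or 12.3-fold higher, and -2.33 ± 0.56 for Prkcz (SE, adjusted p = 0.0097), or 5.03-fold lower in p16-/- RA. Prkci had a change of 0.10 with Gapdh alone as the reference, and Prkcz had one of -1.35 without Gapdh in the reference, which did not pass (adjusted p = 0.10). With CTs limited to 30, Prkcz had a change of -0.93 (adjusted p = 0.53), since all its CTs were over 30, and with plate column effects removed its change was -3.62 (adjusted p = 0.0066).

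Of the 7 transcription factors, 2 were higher and 0 lower, with a median of -0.21. Cebpb, a bZIP factor of inflammation and adipocyte differentiation, was higher by 2.80 (adjusted p = 0.018), a change that became -0.73 with Gapdh alone as the reference. Pparg, a nuclear receptor that directs adipocyte and alveolar macrophage differentiation, stood at -5.37, -4.19 and -4.55 in the p16-/- RA lungs, compared with -6.65, -6.92, -6.42 and -7.02 in the p16+/+ RA lungs. There was no overlap, and the change was 2.05 ± 0.64 (SE, adjusted p = 0.022), or 4.14-fold higher. Pparg came up at 29.5 cycles on average in p16-/- RA and 32.5 in p16+/+ RA, and its change became -0.35 when CTs were limited to 30 and -1.48 with Gapdh alone as the reference. The immediate early factor Fos had a change of -4.11 (adjusted p = 0.081), with -2.17, -10.04 and -9.22 in p16-/- RA lungs and -5.35 to -0.85 in p16+/+ RA lungs, so that p16-/- RA lung 1 was above p16+/+ RA lungs 1 and 4. Fos lay in plate column 12, whose targets had a median change of -1.84. Srebf1, which drives lipid synthesis genes, had a change of -2.80 with no overlap (adjusted p = 0.061). Klf10 had a change of 1.92 and Cebpa one of -1.21, and neither passed.

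Of the 9 genes of glucose metabolism, 3 were higher and 0 lower, with a median of 0.95. Pklr, the pyruvate kinase of liver and red cells, stood at -2.20, -2.10 and -2.32 in the p16-/- RA lungs, compared with -5.72, -5.57, -5.73 and -5.69 in the p16+/+ RA lungs. Both groups were tight and far apart, with a change of 3.47 ± 0.73 (SE, adjusted p = 0.0043) that became -0.06 with Gapdh alone as the reference. Pck2, the mitochondrial form of the gluconeogenic enzyme PEPCK, was higher by 2.02 (adjusted p = 0.041) and had a change of -1.50 with Gapdh alone. G6pc2, a glucose-6-phosphatase known from islets, had a change of 1.81 with no overlap (adjusted p = 0.081). The glucose transporter Slc2a1 had a change of 0.95 and hexokinase Hk2 one of -0.75. Fbp1, a gluconeogenic phosphatase, had one of -2.59 (adjusted p = 0.12).

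Of the 4 genes of lipid metabolism, 2 were higher and 0 lower, with a median of 1.77. Acaca, the acetyl-CoA carboxylase that commits carbon to fatty acid synthesis, stood at -1.81, -1.74 and -2.09 in the p16-/- RA lungs, compared with -5.89, -5.94, -4.45 and -5.38 in the p16+/+ RA lungs. The groups were over 2 cycles apart, and the change was 3.53 ± 0.90 (SE, adjusted p = 0.013), which became 0.01 with Gapdh alone as the reference. Slc27a4, a fatty acid transport protein, had a change of 0.72 and did not pass.

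Of the 5 adipocyte genes, 1 was higher and 1 lower, with a median of -1.10. The defining adipocyte markers Cfd, Lep, Retn and Ucp1 were measured in every lung, and 1 of these 4 passed. Aebp1, a carboxypeptidase-like protein of the matrix, stood at -3.19, -1.98 and -2.11 in the p16-/- RA lungs, compared with -6.04, -7.90, -4.13 and -4.08 in the p16+/+ RA lungs, a change of 3.11 ± 0.93 (SE, adjusted p = 0.02) that became -0.42 with Gapdh alone. Retn, the adipokine resistin, was lower, with -3.12, -1.95 and -3.07 in the p16-/- RA lungs, compared with -0.61, 0.89, -0.40 and -0.84 in the p16+/+ RA lungs. The groups were over 1 cycle apart for Retn, a change of -2.47 ± 0.77 (SE, adjusted p = 0.022). It became -1.50 without Gapdh in the reference (adjusted p = 0.15) and -0.46 with plate column effects removed (adjusted p = 0.79). Ucp1, the thermogenic protein of brown fat, had a change of -3.22 with no overlap (adjusted p = 0.081, p16-/- RA lung 3 set to 35 cycles), and the adipokine Lep one of -1.10 with overlap. Cfd, the adipokine adipsin, had a change of 1.50 (adjusted p = 0.2).

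Of the 4 hormone, neuropeptide and adrenergic receptor genes, 1 was higher and 1 lower, with a median of 1.39. Npy, neuropeptide Y of sympathetic nerves, stood at -5.11, -3.62 and -4.58 in the p16-/- RA lungs, compared with -8.86, -8.57, -7.82 and -7.03 in the p16+/+ RA lungs. Tg, thyroglobulin, stood at -6.26, -9.83 and -9.96 in the p16-/- RA lungs, compared with -5.98, -5.26, -5.29 and -4.33 in the p16+/+ RA lungs. Npy stood well apart, whereas p16-/- RA lung 1 lay close to the lowest p16+/+ RA lung in Tg, and the CT of p16-/- RA lung 3 was over 35 and set to 35. The change was 3.63 ± 0.77 for Npy (SE, adjusted p = 0.0043) and -3.47 ± 1.17 for Tg (SE, adjusted p = 0.031). Tg had a change of -2.49 without Gapdh in the reference (adjusted p = 0.11), -0.93 with CTs limited to 30 and -2.37 with plate column effects removed (adjusted p = 0.055). Npy came up at 33.8 cycles on average in p16+/+ RA, and its change became -0.14 when CTs were limited to 30. The pituitary hormone gene Prl had a change of 1.71 (adjusted p = 0.086).

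Of the 5 vascular, survival and repair genes, 2 were higher and 1 lower, with a median of 0.02. Vegfa, the endothelial growth factor, had the most negative change of the array, with -5.28, -10.54 and -9.96 in the p16-/- RA lungs, compared with -2.67, -2.22, -2.69 and -9.14 in the p16+/+ RA lungs. The groups overlapped, since the CT of p16+/+ RA lung 4 was blank and set to 35. The CTs of p16-/- RA lungs 2 and 3 were over 35 and also set to 35, so all 3 are upper limits of the level. The change was -4.41 ± 1.55 (SE, adjusted p = 0.037), and the exact permutation test gave p = 0.171. The value moved with the handling of late CTs, to -8.03 with no limit and blanks left missing, to -2.30 with a limit of 30 and to -6.07 without p16+/+ RA lung 4. It became -1.53 with plate column effects removed (adjusted p = 0.25) and -3.44 without Gapdh in the reference (adjusted p = 0.076). Bcl2l1, the survival factor Bcl-xL, had a change of -0.81, and the excision repair gene Ercc1 one of 0.02.

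Relatives measured in the same lung were then set against each other, since the difference between 2 genes of a lung needs no reference gene. Of 15 pairs, 8 did not overlap between the groups, where 31.2% of all pairs of targets did not, and 6 reached the smallest exact p of 0.0286, as 19.1% of all pairs did. The 15 were chosen with earlier results known, so nothing particular to relatives is read from these counts, and none passed adjustment (lowest adjusted p = 0.0714). Prkci exceeded Prkcz by 5.96, 5.71 and 7.21 cycles in the p16-/- RA lungs, compared with -0.06, -0.11, 0.69 and 0.84 cycles in the p16+/+ RA lungs, a difference of 5.95. Both isoforms thus came up at about the same cycle in p16+/+ RA lungs and several cycles apart in p16-/- RA lungs.
Frs2 less Frs3 stood at -0.62, -0.50 and -0.76 cycles in the p16-/- RA lungs, compared with -3.38, -5.09, -4.68 and -2.63 cycles in the p16+/+ RA lungs. Irs1 less Irs2 stood at -0.08, 0.17 and 0.16 cycles in the p16-/- RA lungs, compared with -2.22, -3.17, -2.48 and -2.04 cycles in the p16+/+ RA lungs. Irs1 and Irs2 came up together in p16-/- RA lungs, and Irs1 came up later than Irs2 in each p16+/+ RA lung. With plate column effects removed their difference between the genotypes was 0.96, compared with 2.56 as measured.
The same exact p of 0.0286 held for Pik3r1 less Pik3r2, with a difference of 2.03 between the genotypes, and for Rras2 less Rras, with one of 1.56. Cebpb less Cebpa differed by 4.01 (exact p = 0.0571), G6pc2 less G6pc by 1.35 (exact p = 0.0571), Dok2 less Dok3 by 2.50 (exact p = 0.0857) and Akt1 less Akt2 by 1.16 (exact p = 0.0857). Pik3ca less Pik3cb differed by -0.34 (exact p = 0.83) and Araf less Braf by -0.62 (exact p = 0.714).

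**Figure D4:**
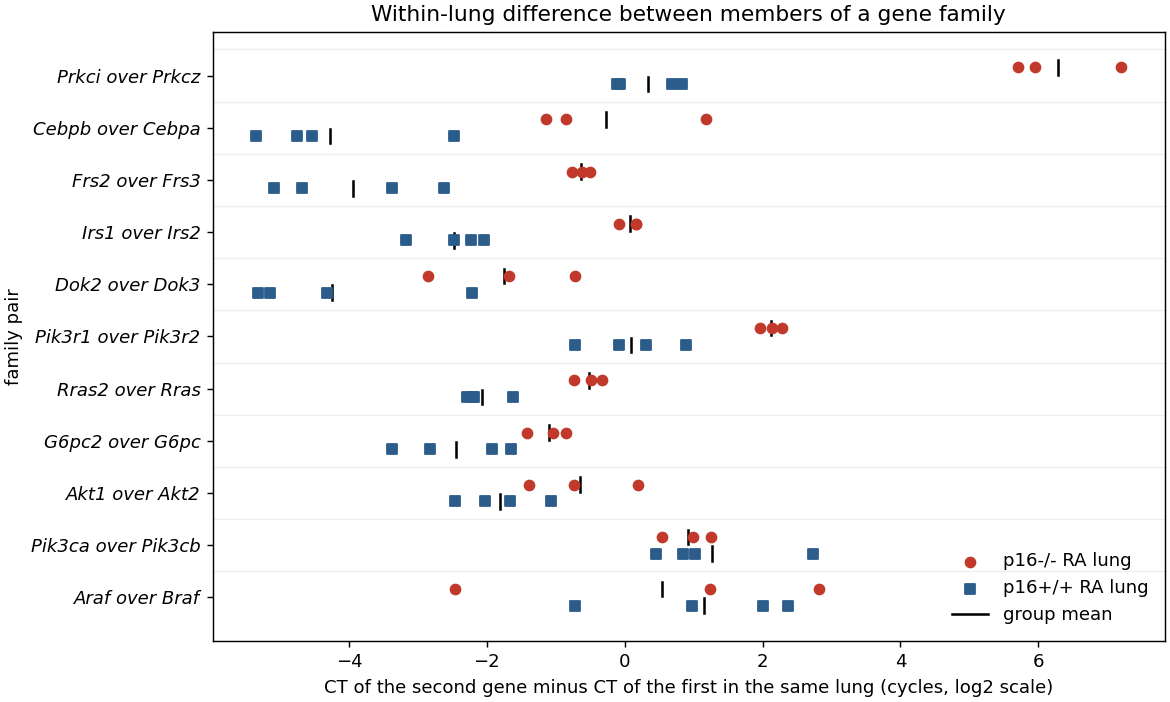
Difference between the CTs of 2 related genes within a lung (horizontal axis, cycles, positive where the gene named first is more abundant by CT) in p16-/- RA and p16+/+ RA lungs, for 11 of the 15 pairs. Prkci less Prkcz lies between 5.71 and 7.21 in p16-/- RA and between -0.11 and 0.84 in p16+/+ RA.

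The genotype difference was then compared between RA and CS. The difference in RA minus that in CS passed limma's test in 0 of 84 genes after adjustment (0%) and in 0 at an unadjusted p of 0.05, with a median of -0.60, where the standard error was 1.21 in the median gene. It was positive in 14 genes and negative in 70. In CS, 32 genes (38.1%) were higher and 1 (1.19%) lower in p16-/- than in p16+/+ lungs. The largest positive value in RA minus CS was 0.74, and Fos had the most negative one at -2.82 ± 2.39 (SE). For Akt1 the genotype difference was 2.99 in RA and 3.76 in CS, for Prkci 3.62 and 3.67, for Prkcz -2.33 and -1.42 and for Pparg 2.05 and 2.28. Cfd had 1.50 in RA and 3.89 in CS (unadjusted p = 0.053 for the difference).

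The change of a gene moved with its place on the plate. Plate columns 1 to 8 held 56 targets, of which 24 were higher and 1 lower with a median change of 1.77, and columns 9 to 12 held 28 targets, of which 0 were higher and 4 lower with a median of -0.66. Column 12 had a median of -1.84. Among the genes with negative changes that did not pass, Fos and Cbl lay in column 12, Fbp1 and Ucp1 in column 11 and Srebf1 in column 9. Once the median departure of each plate column from the gene means was taken out of each lung, 5 genes were higher and 1 lower, Grb10 and Pdpk1 being 2 of the 5 and Prkcz the lower one. Of the 24 higher calls, 3 were kept, and the other 2 of the 5, Pik3cb and Pik3r1, had not passed before. Pdpk1 then had a change of 3.44 and Grb10 one of 2.94, while Acaca (2.71), Pklr (2.64), Frs2 (2.41), Prkci (2.40), Npy (2.34), Aebp1 (2.01), Akt1 (1.77) and Pparg (0.75) did not pass, with adjusted p-values between 0.052 and 0.51 by limma.
The pairs moved too, since relatives lay 1 or 2 columns apart. With plate column effects removed, Prkci less Prkcz differed by 5.92, Frs2 less Frs3 by 3.79 and Rras2 less Rras by 1.09, whereas Pik3r1 less Pik3r2 differed by 1.15 (exact p = 0.171) and Pik3ca less Pik3cb by -1.33 (exact p = 0.0286).
The pattern was unequal among lungs. The mean -ΔCT of columns 9 to 12 less that of columns 1 to 8 was -0.15, -2.66 and -2.72 in p16-/- RA lungs 1, 2 and 3, compared with -0.01, 1.56, 0.10 and -0.05 in p16+/+ RA lungs 1, 2, 3 and 4. The RA lungs far from 0, p16-/- RA lungs 2 and 3 and p16+/+ RA lung 2, were those whose removal moved the counts of calls most. In CS, columns 9 to 12 less columns 1 to 8 gave -3.87, -1.39, -0.35 and 0.004 in the p16-/- lungs. The p16+/+ CS lungs had 0.36, 0.39, 0.56 and 0.53, so the comparison of RA with CS is not free of plate position. Neither the labels nor the methods say which lungs were run together, and the part of plate position in the changes was not tested beyond this.

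**Figure D5:**
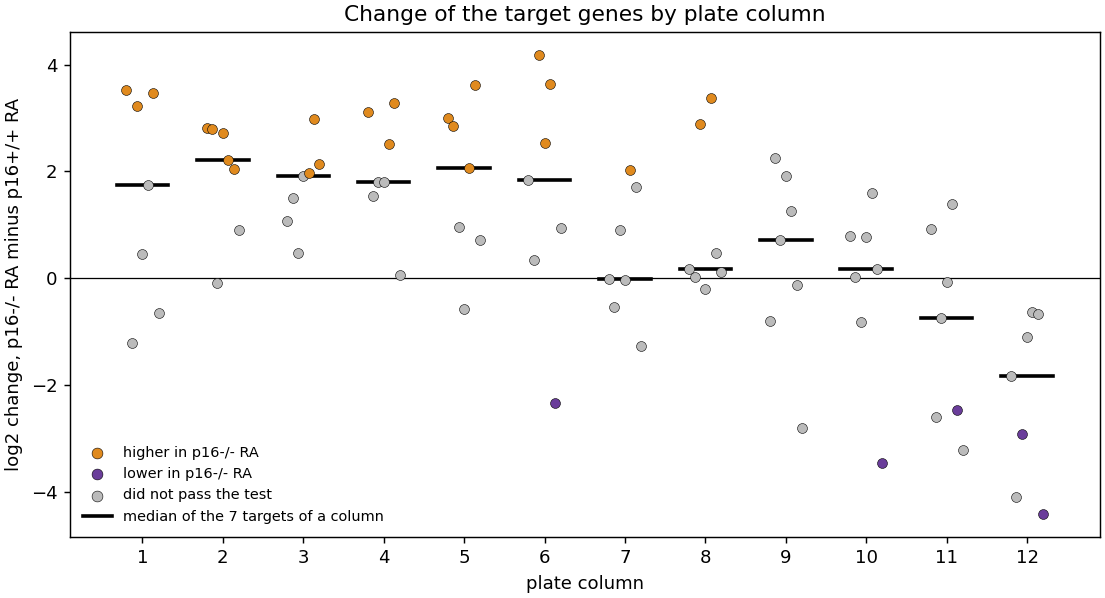
Change of each target (vertical axis, log2, p16-/- RA minus p16+/+ RA) by the plate column of its well (horizontal axis, columns 1 to 12), with a bar at each column's median. Relative to the 5-gene reference mean, medians lie between 1.75 and 2.21 in columns 1 to 6 and at -1.84 in column 12.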

How the data were processed

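RNA from whole lung lobes was assayed on an 84-target insulin signaling PCR array with SYBR Green, with 1 record per group in the labels. CTs were deposited by the authors without normalization, in cycles, which is a log2 scale. CFX Manager 3.1 is named for the qPCR analysis, and its thresholds are not given in the sources used here. The authors' own folds and p-values against p16+/+ RA, in a second table, were not used. 15 columns were taken as lungs and 4 group mean columns were left out.

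Gusb and Hsp90ab1 were moved by 1 place, and -ΔCT was computed per lung with CTs over 35 or blank set to 35. The reference mean of p16+/+ RA lung 1 came from its 3 measured genes plus the offset of the other p16+/+ RA lungs. Changes were tested with limma 3.58.1 (R 4.3.3) in a single fit of the 4 groups (11 residual degrees of freedom), p-values adjusted by Benjamini-Hochberg across the 84 targets and a threshold of 0.05. The fit was first tested on simulated data. Single values and pairs had a two-sided exact permutation test of the difference of means. Alternatives were other reference genes, CT limits, tests, plate column effects, the rows as deposited, a replicate block and each lung left out. The number of lungs limits the precision.

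The members, lists and pairs were chosen with earlier results of these data known. Values per lung are given for the 12 higher and the lower genes with the largest changes, Akt1, Pparg, the reference genes and pairs, and of each list the genes past the threshold and up to 4 others. Some genes of the array that this rule would name are not reported here, and they stayed in every fit and count. Symbols were matched to RefSeq (89 of 89). Python 3.11.15, numpy 2.4.6 and matplotlib 3.10.9 did the rest.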

Additional observations from a re-analysis of the deposited data

Results flagged for a closer look

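Of 72 groups of lungs of named genes checked for 1 value far from the rest, 5 held such a lung, and chance alone marks about 1 group in 20. Cfd stood at -8.58 in p16+/+ RA lung 2, while the other 3 lungs lay between -5.14 and -5.05. Ercc1 stood at -7.19 in p16+/+ RA lung 1, with the others between -2.66 and -2.07. Gsk3b stood at -5.01 in the same lung, with the others between -1.57 and -0.999. Prl stood at -2.64 in p16+/+ RA lung 4, with the others between -4.71 and -4.38. Vegfa stood at -9.14 in p16+/+ RA lung 4, whose CT was blank and set to 35, with the others between -2.69 and -2.22. All values are -ΔCT. Only groups of 4 lungs could be checked, so p16-/- RA, with 3 lungs, was not, and these lungs say nothing about the genotypes.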

How the results depend on the processing

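Beside 24 higher and 5 lower genes, leaving out B2m gave 9 higher, leaving out Hsp90ab1 10 higher and leaving out Gapdh 0 lower (1 at an unadjusted p of 0.05). Gapdh alone gave 0 higher (0 unadjusted) and 44 lower, the median of the targets 12 higher and 17 lower, and a CT limit of 30 gave 0 higher and 0 lower (14 and 4 unadjusted). The methods' t-test, adjusted, called 2 lower (30 higher and 6 lower unadjusted). The exact permutation test called 0 higher and 0 lower after adjustment (23 genes unadjusted), since its smallest p is 0.0286. Removing plate column effects gave 5 higher and 1 lower, with 3 of the 24 and 1 of the 5 calls kept. Leaving out each lung in turn gave 8 to 26 higher and 1 to 7 lower.

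The share of higher among called genes was 82.8%, against 60% without B2m, 62.5% without Hsp90ab1, 100% without Gapdh, 0% with Gapdh alone and 41.4% with the median of the targets. With Gapdh alone the changes of Aebp1 (-0.42), Akt1 (-0.53), Cebpb (-0.73), Dok2 (-0.68), Frs2 (-0.30), Grb10 (-0.65), Igf2 (-0.81), Irs1 (-0.99), Mtor (-1.56), Nck1 (-1.01), Pck2 (-1.50), Pdpk1 (-0.15), Pklr (-0.063) and Pparg (-1.48) turned negative. With a CT limit of 30, Npy (-0.14) and Pparg (-0.35) did. Gapdh alone moves every change by the same amount, -3.53, its own difference between the genotypes relative to the 5 reference genes. A limit of 30 sets later CTs to 30, as for Npy and Pparg in every p16+/+ RA lung. Why Gapdh differed was not tested.

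The difference between RA and CS, the 15 pairs and the reference genes gave 0 calls under every alternative tried. Without a lung, however, the smallest exact p of a pair or of a reference gene is 0.0667 to 0.1, which cannot pass. Same-numbered lungs correlated at 0.21, -0.43 and 0.17 in their deviations, and lungs of different number at -0.61 to 0.68. So few values cannot settle whether the numbers pair lungs. The replicate block gave 26 higher and 4 lower. The alternative for the reference mean of p16+/+ RA lung 1 is the value used throughout, since its group mean column covers only the other 3 lungs. The number of lungs and the late CTs of p16+/+ RA limit the precision.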
